A study of Mus musculus with 2 samples.

Results

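The CC chemokines and the colony-stimulating factors were followed through the silencing of *Vgll3* in mouse cardiac myofibroblasts. The 9 genes were picked by symbol: 6 CC chemokines (*Ccl2*, *Ccl5*, *Ccl7*, *Ccl8*, *Ccl9* and *Ccl11*) and 3 colony-stimulating factors (*Csf1*, *Csf2* and *Csf3*), out of 24532 genes in the deposited count table. The group was chosen from the rise of *Ccl7* and *Ccl8* in the same pair of libraries that is described here, so the changes below are a description of those libraries, and no test is attached to them.

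The study asked which genes depend on VGLL3, a transcriptional cofactor that partners with TEAD proteins, in the cells that lay down collagen in the infarcted heart. Myofibroblasts were isolated from C57BL/6 hearts (C57BL/6J in the study's methods) 3 days after myocardial infarction, a model that the study's methods give as run in male mice of 8 to 10 weeks, and cells carrying the leukocyte antigen CD45 were removed on magnetic beads. They were grown on plastic in medium with 10% serum and transfected with 12.5 nM siRNA that was either a control (siCtrl) or directed at *Vgll3* (si*Vgll3*), and poly(A) RNA was sequenced 72 h later. There was 1 library per condition and 1 siRNA against *Vgll3*, so a change that follows from the loss of *Vgll3* and one that follows from another effect of that siRNA cannot be told apart. The sources used here do not say how many hearts gave the cells of each library.

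Chemokines of the CC class are small secreted proteins that direct leukocytes along a gradient through receptors on the cell surface. In an injured heart, CCL2 and CCL7 draw monocytes through the receptor CCR2, CCL11 (eotaxin) draws eosinophils through CCR3, and fibroblasts are among the cells that secrete them. Colony-stimulating factors act on the recruited cells in turn: CSF1 keeps macrophages alive through CSF1R, CSF2 (GM-CSF) acts on granulocytes and macrophages, and CSF3 (G-CSF) acts on neutrophils.

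Levels are given as TPM, the transcript abundance scaled by transcript length and library total, which can be compared between genes. M is the log2 of the si*Vgll3* TPM over the siCtrl TPM, and A is the log2 of the mean of both TPM values. A gene was called higher or lower when M was above 0.5 or below -0.5 and A was above 0. The study's MA plot used the lower of these thresholds, and the upper one mirrors it here; how the study computed A is not given in the sources used here. There were 11754 genes with A above 0. With no replicate libraries, every interval in brackets is a 95% interval that covers counting error alone. The libraries held 140815237 (siCtrl) and 125789276 (si*Vgll3*) counted reads, and *Vgll3* itself went from 42925 to 16524 reads, or 202 to 84.0 TPM (M = -1.27). The median M of the 11754 genes was -0.05.

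*Ccl2*, *Ccl7*, *Ccl8* and *Ccl11* rose after *Vgll3* silencing, *Ccl9* fell, *Ccl5* and *Csf1* stayed within the thresholds, and *Csf2* and *Csf3* had no reads in either library. So 7 of the 9 genes could be compared, of which 4 were higher and 1 was lower. Among all genes with A above 0, 5.73% were higher and 11.4% were lower. The whole counting interval lay above 0.5 for 4 of the 7 genes and below -0.5 for 1, against 3.76% and 8.31% of all genes. Because the family was selected on this contrast, these shares are background and carry no weight as evidence. The gene just past the upper threshold was *Ccl7*, with M = 1.12, and the highest one within it was *Csf1*, at 0.35; on the other side *Ccl9*, at -0.87, was past the threshold and *Ccl5*, at -0.38, was not.

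**Figure D1:**
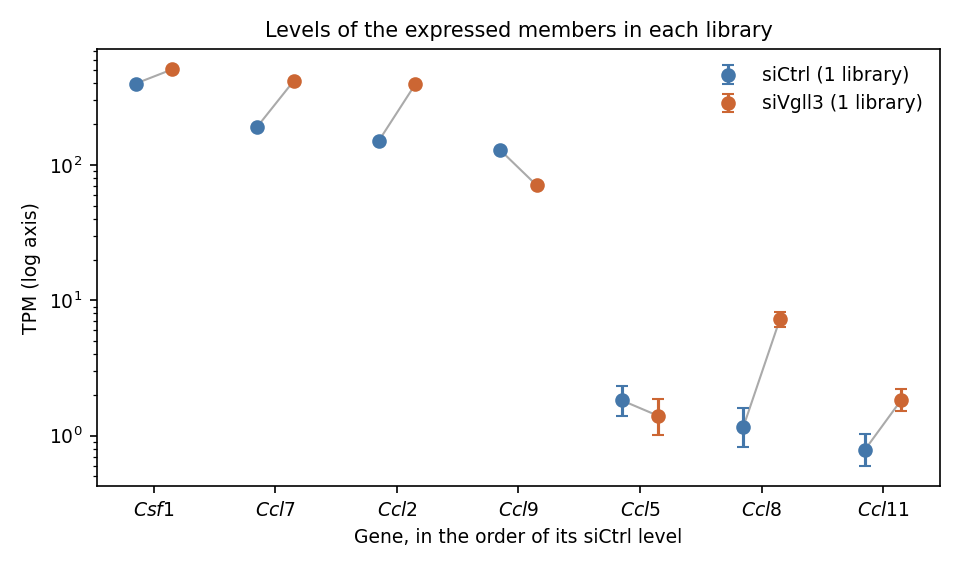
TPM of the 7 expressed members in the siCtrl library (blue) and the si*Vgll3* library (orange), on a log axis; bars are 95% Poisson intervals of the read count, hidden behind the points for the 4 abundant genes. *Csf1*, *Ccl7*, *Ccl2* and *Ccl9* lie between 70.7 and 508 TPM, and *Ccl5*, *Ccl8* and *Ccl11* between 0.788 and 7.24 TPM.

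The abundant chemokines were the monocyte attractants *Ccl2* (monocyte chemoattractant protein 1) and *Ccl7* (monocyte chemoattractant protein 3). *Ccl2* had 7735 reads in the siCtrl library and 18722 in the si*Vgll3* library, or 150 [147, 154] and 393 [388, 399] TPM. Its M was 1.39 [1.35, 1.43], a 2.62-fold rise that moved it from place 1138 to place 401 by TPM among the 11754 genes with A above 0. *Ccl7* had 9743 and 19654 reads, or 191 [187, 195] and 416 [411, 422] TPM. Its M was 1.12 [1.09, 1.16], a 2.18-fold rise from place 871 to place 378. *Ccl7* was the more abundant of the pair in both libraries, and the level of *Ccl2* relative to *Ccl7* went from 0.787 to 0.944. On read numbers of this size, counting error is small beside the change of either gene.

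*Ccl8* (monocyte chemoattractant protein 2) and *Ccl11* were far scarcer than *Ccl2* and *Ccl7* in both libraries. *Ccl8* went from 38 to 219 reads, or from 1.16 [0.824, 1.60] to 7.24 [6.31, 8.27] TPM. Its M of 2.64 [2.13, 3.17], a 6.22-fold rise, was the 12th highest of the 11754 genes, whereas *Ccl2*, *Ccl11* and *Ccl7* held places 106, 133 and 158. *Ccl11* went from 54 to 117 reads, or from 0.788 [0.592, 1.03] to 1.84 [1.53, 2.21] TPM, with M = 1.23 [0.75, 1.72]. The intervals of the libraries did not overlap for either gene. On these counts the sizes of their rises are less certain than those of *Ccl2* and *Ccl7*: with 1 TPM added to both libraries, M was 1.93 for *Ccl8* and 0.67 for *Ccl11*.

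*Ccl9* (macrophage inflammatory protein 1 gamma), a ligand of CCR1 that rodents carry, moved the other way. It had 24728 reads in the siCtrl library and 12560 in the si*Vgll3* library, or 129 and 70.7 TPM, so that 54.9% of its siCtrl level was left (M = -0.87 [-0.90, -0.83]). *Ccl5* (RANTES), which attracts T cells and monocytes, was scarce in both libraries. It had 62 and 44 reads, or 1.82 and 1.40 TPM, and its M of -0.38 [-0.97, 0.20] had an interval that holds 0. At this depth no change of *Ccl5* was detectable.

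*Csf1* was the most abundant of the 9 genes in both libraries. It had 98952 and 112838 reads, or 399 [396, 401] and 508 [505, 511] TPM. Its M of 0.35 [0.34, 0.36] was short of the threshold, although the interval does not hold 0, and it was the 1136th highest of the 11754 genes. For *Csf2* and *Csf3*, 0 reads in a library allow up to 3, which is 0.0213 CPM (reads scaled to the library total) in the siCtrl library and 0.0238 in the si*Vgll3* library. The only colony-stimulating factor detected in these cells was thus the macrophage factor.

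In the siCtrl library the order by TPM was *Csf1*, *Ccl7*, *Ccl2*, *Ccl9*, *Ccl5*, *Ccl8* and *Ccl11*. The counting intervals of *Ccl5* and *Ccl8* overlapped, as did those of *Ccl8* and *Ccl11*, so these neighbours did not differ beyond counting error. In the si*Vgll3* library the first 4 places were held by the same genes in the same order, and *Ccl8* stood above *Ccl11* and *Ccl5*, whose intervals overlapped.

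The makeup of the CC chemokine mRNA pool shifted with these changes. Summed over the 24 CC chemokine genes, of which 12 have a TPM value, the pool went from 491 to 910 TPM. *Ccl2* and *Ccl7* together gave 341 TPM in the siCtrl library and 809 TPM in the si*Vgll3* library, which is 69.5% and 88.9% of the pool. *Ccl9* went from 26.2% to 7.76% of it. In the siCtrl library *Ccl7* was 1.48 times as abundant as *Ccl9*, and in the si*Vgll3* library 5.89 times.

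The 4 genes that rose lie in the same group on chromosome 11, all on the + strand (build GRCm38, the mm10 assembly of the files). *Ccl2* spans chr11:82035577-82037452. *Ccl7* starts 10.1 kb from the start of *Ccl2*, *Ccl11* 22.3 kb and *Ccl8* 79.6 kb from it. *Ccl12*, which lies between *Ccl11* and *Ccl8* at 66.3 kb, and *Ccl1*, which closes the group at 144 kb on the - strand, had 0 reads in both libraries. So every gene with reads inside this group was higher, but all 4 are members, and the rise of *Ccl7* and *Ccl8* guided the choice of the family. The nearest protein-coding genes with A above 0 on either side, *Tmem98* and *Zfp830*, lie 1225 kb before and 729 kb after the start of *Ccl2*, and had M = -0.32 and -0.28.

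*Ccl9* and *Ccl5*, both on the - strand, belong to a neighbouring group on the same chromosome. *Ccl5* spans chr11:83525778-83530518 and *Ccl9* chr11:83572917-83578636, with their starts 48.1 kb apart. Next to *Ccl9* lie *Ccl6*, another ligand of CCR1, and the noncoding transcript *E230016K23Rik*, which covers *Ccl6* on the opposite strand. *Ccl6* has no TPM value, and its reads went from 86 to 18, a log2 CPM ratio of -2.09 [-2.91, -1.35]; this ratio was chosen after the values were seen. *E230016K23Rik* went from 360 to 100 reads and from 2.64 to 0.758 TPM (M = -1.80). The library kit keeps strand, but the sources used here do not say whether counting used it, so reads of these overlapping genes may not be separate. *Ccl3* and *Ccl4*, at the far end of this group, had 0 reads. The nearest protein-coding gene with A above 0 beyond them, *Wfdc18*, went from 51.3 to 13.2 TPM (M = -1.95), and the nearest one on the *Ccl5* side, *Taf15*, had M = -0.28. *Csf1* lies apart on chromosome 3, and *Csf2* and *Csf3* lie elsewhere on chromosome 11.

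**Figure D2:**
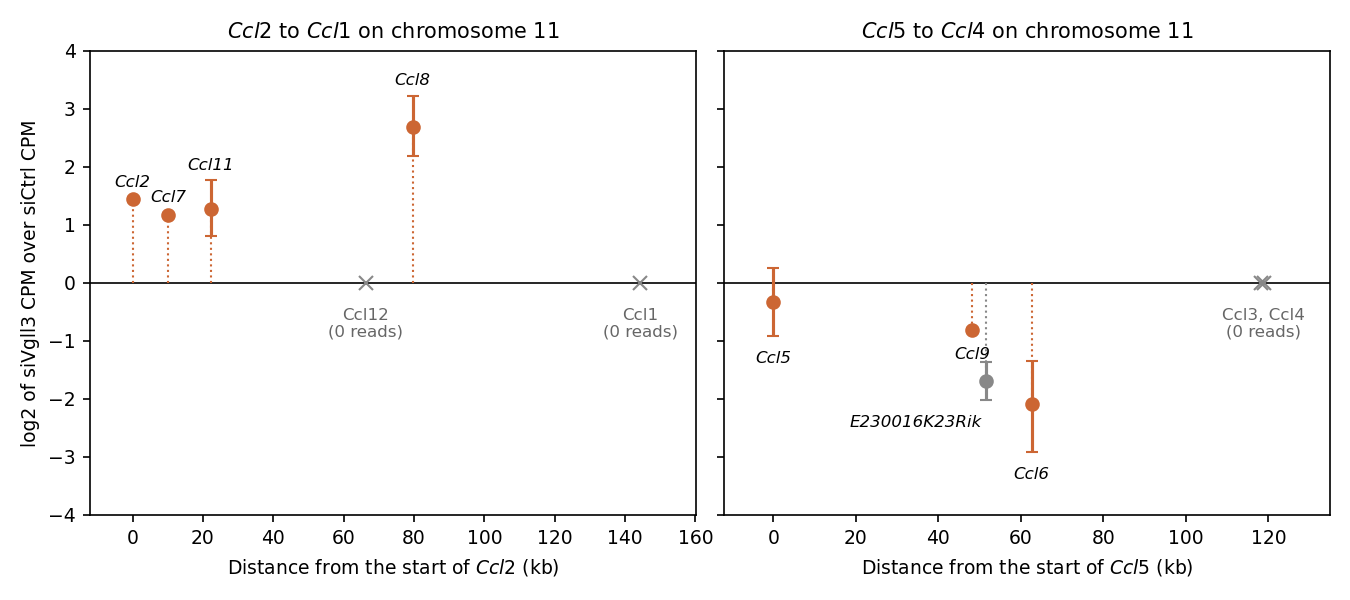
Log2 of the si*Vgll3* over the siCtrl CPM for each gene inside both chemokine groups of chromosome 11, against the distance of its start from that of *Ccl2* or *Ccl5* in kb; bars are 95% intervals of the read ratio, grey crosses are genes with 0 reads in both libraries, and the grey point is a noncoding transcript. The 4 expressed genes of the group on the left lie above 0, and the rise of *Ccl7* and *Ccl8* among them guided the choice of the family. The 4 of the group on the right lie below 0, where the interval of *Ccl5* holds 0. There *Ccl6* and the noncoding transcript overlap and may share reads.

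The promoters of *Ccl8* and *Ccl9* are shown because these genes, from the separate groups above, moved in opposite directions. RefSeq promoters, from 250 bases before to 50 after the start of the gene in GRCm38.p6, matched 4 of the 9 genes (*Ccl8*, *Ccl9*, *Csf1* and *Csf2*) and not *Ccl2*, *Ccl5*, *Ccl7*, *Ccl11* and *Csf3*. Capitals mark matches, on either strand, to any of 5 motifs: GGGNNTTCC (kappaB-like), TTNCNNAA (C/EBP-like), TGANTCA (AP-1), GGAATG (TEAD) and GAAANNGAA (interferon response-like). The *Ccl8* promoter is chr11:82114935-82115234 on the + strand, and the *Ccl9* promoter is chr11:83578587-83578886 on the - strand; both are written 5′ to 3′ along the gene.
Ccl8: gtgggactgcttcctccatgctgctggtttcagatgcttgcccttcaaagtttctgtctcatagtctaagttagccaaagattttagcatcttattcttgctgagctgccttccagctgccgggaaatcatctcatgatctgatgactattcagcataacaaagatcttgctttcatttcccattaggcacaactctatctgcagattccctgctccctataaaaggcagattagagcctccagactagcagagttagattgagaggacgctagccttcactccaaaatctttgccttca
Ccl9: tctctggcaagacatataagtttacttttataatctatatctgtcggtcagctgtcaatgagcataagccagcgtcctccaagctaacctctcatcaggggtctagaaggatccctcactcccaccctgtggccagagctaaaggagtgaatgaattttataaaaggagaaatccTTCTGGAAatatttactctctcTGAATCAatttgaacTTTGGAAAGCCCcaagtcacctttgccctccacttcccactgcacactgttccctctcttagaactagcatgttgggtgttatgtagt

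The *Ccl8* window held none of the 5 motifs, and neither did that of *Csf1*. The window of *Csf2*, which had no reads, held 3 matches: C/EBP-like at -145, TEAD at -172 and interferon response-like at -199. The *Ccl9* window held 4 matches: a kappaB-like one starting at -35 from the gene start, C/EBP-like ones at -75 and -38, and an AP-1 one at -53, of which the kappaB-like match and the C/EBP-like match at -38 overlap. Of all 32851 RefSeq promoters of this length, 5.82% held the kappaB-like motif, 40.7% the C/EBP-like one, 7.81% the AP-1 one, 14.7% the TEAD one and 8.56% the interferon response-like one. A match says only that these letters are in the window.

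Many mRNAs of secreted immune factors carry AU-rich stretches in the 3′ UTR, which shorten their life. The motif TATTTAT occurred 9 times in the 317 bases of the *Csf2* 3′ UTR, 2 times in that of *Csf3* and 1 time in that of *Csf1*, and in none of the 6 chemokines. For comparison, 6.98% of 14552 mouse 3′ UTRs hold it in their first 300 bases, as do those of these 3 genes. The densest stretch of 30 bases is shown for the colony-stimulating factors that had no reads, from the GENCODE vM21 transcripts, with ATTTA in capitals; it covers bases 230 to 259 of the *Csf2* 3′ UTR and bases 24 to 53 of that of *Csf3*.
Csf2: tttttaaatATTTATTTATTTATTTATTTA
Csf3: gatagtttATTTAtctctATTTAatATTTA

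The microRNA miR-29b, which the study also examined, pairs with targets through its seed, in capitals here from the RefSeq mature sequence.
mmu-miR-29b-3p: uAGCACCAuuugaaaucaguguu
Its seed match, TGGTGCT, occurred 0 times in the whole 3′ UTRs of the 9 genes, which are 165 to 2465 bases long. Of the 14552 windows of the first 300 bases, 3.07% held it. The lengths searched are unlike, and 0 of 9 genes is near that share, so the absence carries no weight. This search was added after the data were seen.

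Chemokine genes are paralogs, so the sequence they share was measured. No stretch of 36 bases, the shortest read the authors kept, was shared between another gene and the mRNA of *Ccl2*, *Ccl5*, *Ccl7*, *Ccl8*, *Ccl11*, *Csf1* or *Csf3*. For *Ccl9* 3.33% of such stretches also occur in other genes, and for *Csf2* 8.10%, in the antisense gene *Gm12223*. The longest run that *Ccl2* and *Ccl7* share is 23 bases, and that of *Ccl9* and *Ccl6* is 25 bases. *Ccl2* lies within *Gm17268*, a gene annotated on the opposite strand that the count table does not list.

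The other CC chemokines were scarce or without reads. Of 18 listed, 10 had no reads in either library and 3 had A above 0, with a median M of 0.27. *Ccl25*, known for homing of T cells to the gut and thymus, rose from 343 to 496 reads, or 5.05 to 7.88 TPM (M = 0.64 [0.44, 0.84]), an interval that reaches below the threshold. *Ccl17*, a ligand of CCR4, had the highest mean level of this list, at 7.83 and 7.49 TPM (M = -0.06).

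The signal receptors for these chemokines were nearly absent from the cells themselves. Of 16 receptor genes 8 had no reads, *Ccr2* among them, and 2 had A above 0. *Ccr1* had 0 and 12 reads, and *Ccr3* had 17 and 14. *Ackr4*, an atypical receptor that takes up CCL19, CCL21 and CCL25 without signalling, fell from 557 to 81 reads, or 4.14 to 0.649 TPM (M = -2.67 [-3.03, -2.33]). *Ackr3*, a related scavenging receptor, had 2.90 and 3.09 TPM (M = 0.09).

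The receptors of the colony-stimulating factors were few as well. *Csf1r*, the receptor of CSF1, had 320 and 419 reads, or 1.29 and 1.83 TPM. Its M of 0.504 [0.29, 0.72] is only just past the threshold, and the mRNA of its ligand was 309 and 277 times as abundant. *Il34*, the other ligand of CSF1R, had the highest mean level of the list, with 5.41 and 7.26 TPM (M = 0.43). Of the 6 genes listed, 3 had A above 0, with a median M of 0.43, and *Csf3r* had no reads.

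**Figure D3:**
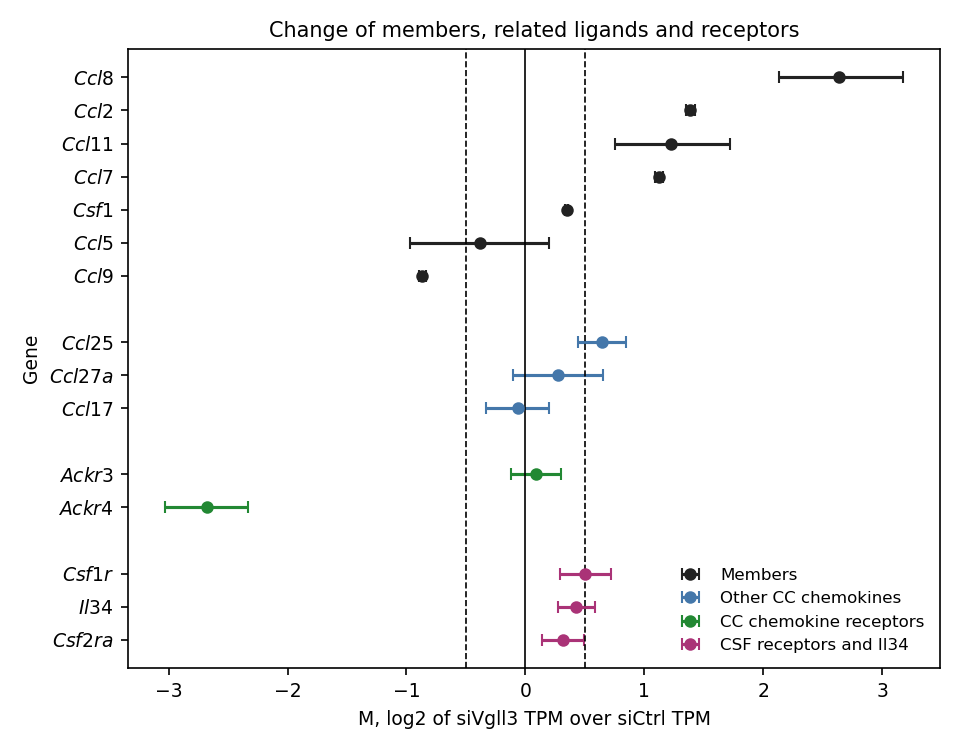
M (log2 of si*Vgll3* TPM over siCtrl TPM) of the 7 expressed members and of the other CC chemokines, CC chemokine receptors and CSF receptors with A above 0; bars are 95% intervals of the read ratio and dashed lines mark -0.5 and 0.5. *Ccl8*, *Ccl2*, *Ccl11* and *Ccl7* lie right of the upper line with their whole intervals, and *Ccl9* and *Ackr4* left of the lower line.

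Of 30 listed cytokines, receptors and adaptors that switch on chemokine genes, 21 had A above 0, with 1 higher, 1 lower and a median M of -0.24, against 5.73% higher and 11.4% lower of all genes. *Il6*, a cytokine that fibroblasts release with CCL2 in inflammation, rose from 7065 to 14299 reads, or 97.4 to 213 TPM (M = 1.13 [1.09, 1.17]). *Il33*, an alarmin held in the nucleus, fell from 8.67 to 4.21 TPM (M = -1.04). *Tnfrsf1a*, the main TNF receptor of fibroblasts, had the highest mean level, with 301 and 237 TPM (M = -0.35). The inducers *Il1a*, *Il1b* and *Tnf* had 0 reads in both libraries.

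All 22 transcription factors and inhibitors known to act on chemokine promoters had A above 0, with a median M of -0.11. There were 4 higher and 1 lower, against 5.73% higher and 11.4% lower of all genes. *Cebpb*, a factor of acute-phase and cytokine genes, rose from 249 to 703 reads, or 2.55 to 7.82 TPM (M = 1.62 [1.41, 1.83]). The AP-1 subunits *Fosl1* and *Fos* rose from 21.9 to 40.9 TPM (M = 0.90) and from 14.6 to 23.4 TPM (M = 0.68). *Tnfaip3*, an inhibitor of NF-kappaB that is itself its target, rose from 3.24 to 5.72 TPM (M = 0.82). *Stat3*, downstream of IL-6, had the highest mean level, with 165 and 135 TPM (M = -0.29).

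None of the 12 factors of AU-rich mRNA decay and stability passed a threshold, where 5.73% of all genes were higher and 11.4% lower. Their M lay between -0.28 and 0.24, with a median of -0.09, and *Zfp36l1*, a decay factor, was the most abundant, with 175 and 151 TPM. Among the proteases that trim chemokines, 4 of 8 had A above 0 and 2 of these were lower, with a median M of -0.52. Of all genes 11.4% were lower, and with only 4 genes the share of this list carries little weight. *Mmp2*, which cleaves CCL7, fell from 209 to 128 TPM (M = -0.71), and *Mmp14*, which activates MMP2, fell from 443 to 281 TPM (M = -0.66).

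**Figure D4:**
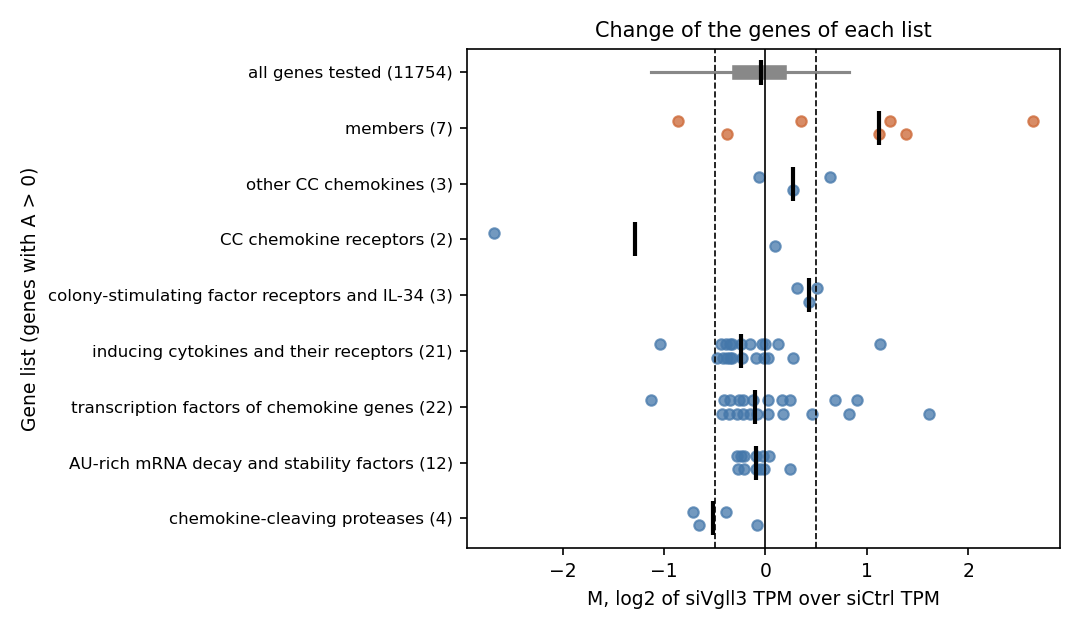
M of each gene with A above 0 in the members (orange) and in the 7 lists around them (blue), with the number of genes in brackets and the median as a black stroke; for all genes the thick bar spans the middle 50% and the thin line the middle 95%. The medians are 1.12 for the members, whose choice used this contrast, and -0.05 for all genes, and the 12 decay factors lie between the dashed lines at -0.5 and 0.5.

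The cells carried the markers of their label. All 14 myofibroblast markers had A above 0, with 2 higher, 7 lower and a summed level of 25236 and 22179 TPM. The shares over all genes, for these and the marker lists below, were 5.73% higher and 11.4% lower. *Acta2*, the smooth muscle actin of myofibroblasts, had 3296 and 3866 TPM (M = 0.23), and *Col1a1*, collagen type I, fell from 4918 to 2631 TPM (M = -0.90). Leukocytes also make these chemokines: of 27 leukocyte markers 14 had no reads in either library, among them the defining *Ptprc* (CD45), *Itgam* and *Adgre1*. The summed leukocyte marker level was 16.5 and 14.9 TPM. Of the 5 with A above 0, 3 were higher and 1 was lower, *Cd53* going from 0.760 to 5.91 TPM and *Lyz2* from 10.9 to 3.13 TPM. The cardiomyocyte gene *Tnnt2* fell from 60.0 to 10.4 TPM, with 8 of the 10 markers of that cell type without reads. Of 8 mesothelial markers 2 were higher and 3 lower, 6 had M below 0, and their summed level was 81.6 and 62.6 TPM. *Krt19* rose from 2.86 to 16.8 TPM, and *Upk3b* fell from 31.6 to 9.89 TPM. Summed endothelial markers were at 33.9 and 32.2 TPM, with 0 higher and 1 lower of the 5 with A above 0. The largest part was *Tek*, which fell from 19.5 to 13.4 TPM, whereas 3 of the 5 had M above 0. Of the 5 with A at most 0, *Cldn5* went from 11 to 94 reads and *Erg* from 178 to 116. Summed pericyte markers were at 111 and 112 TPM, with 0 higher and 1 lower of 2. Most of that sum was *Mcam*, at 94.9 and 102 TPM, and *Notch3* fell from 14.1 to 7.97 TPM. Flat sums thus hide changes of single markers. The part of these other cells in the chemokine changes was not tested. In bulk RNA, fewer cells that express a gene and less of its RNA in each cell cannot be told apart.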

How the data were processed

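Per the methods, the authors trimmed reads with Trimmomatic (reads under 36 bases removed), mapped them to the mm10 genome by HISAT2, and used StringTie to assemble the known transcripts. The authors deposited a table of read counts per gene (24532 genes) and, for each library, TPM values (14158 genes); the versions are not given in the sources used here. M and A were computed from the TPM. Intervals of M are 95% Clopper-Pearson intervals of the read ratio, shifted onto the TPM ratio, and intervals of levels are exact Poisson intervals scaled to TPM. Intervals and floors (3 reads for a count of 0) cover counting error only and compare the libraries, not the conditions. With 1 library per condition no test was run, and edgeR 4.0.16 and DESeq2 1.42.0 (R 4.3.3) gave only scaling factors for the alternatives; pandas 2.3.3 and scipy 1.17.1 were used for the rest. The scripts were tested on simulated data. The members and gene lists were chosen with earlier results of these data known. Every member is named; of the other lists, up to 6 genes past 0.5 on M may be named, plus the most abundant gene, and genes inside the chromosomal groups. Receptors, inducers and markers at or near 0 reads, the nearest flanking genes of each group and *Acta2* were added after the values were seen. Genes without a TPM value in a library have no M. A planned alignment of the proteins was not run. Some genes of the lists are not reported here.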

Additional observations from a re-analysis of the deposited data

How the results depend on the processing

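No paired analysis was possible because siCtrl and si*Vgll3* stand for 1 library each. Every member kept its direction under CPM, TMM scaling, DESeq2 size factors, 0.1 or 1 TPM added and centring on the median: M lay between 1.38 and 1.44 for *Ccl2*, 1.12 and 1.18 for *Ccl7*, 1.93 and 2.69 for *Ccl8*, 0.67 and 1.28 for *Ccl11*, -0.87 and -0.81 for *Ccl9*, -0.38 and -0.23 for *Ccl5*, and 0.34 and 0.39 for *Csf1*. The number of higher members was 4 or 3 in all 11 alternatives; it was 3 with A above 2 and with the 3 scalings of the counts, where *Ccl11* lay under the filter on A. *Ccl9* was not past a threshold of 1, which left 0 lower members. Over all genes, the higher ones numbered 1428 of 14149 with no filter on A, 393 with A above 2, 1159 with at least 10 reads in each library, 207 with a threshold of 1 and 442 with the whole interval past 0.5, against 674. The lower ones numbered 2103 with no filter and 384 with a threshold of 1, against 1341. The median M of the colony-stimulating factor receptors and *Il34* was 0.31 with 1 TPM added, against 0.43. Spread between cultures could not be measured, and *Ccl5*, *Ccl8* and *Ccl11* rest on 38 to 219 reads.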
